A study of Rattus norvegicus with 172 samples.

Results

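The acute phase genes described here are 10 rat genes chosen by symbol: the positive acute phase genes Crp, Orm1, Lcn2, A2m and Itih4, the negative acute phase genes Alb, Ttr, Ahsg and Serpina4, and Socs3, an inhibitor of the cytokine signal that drives the response. Of these 10 symbols, 9 matched a row among the 32883 genes of each count table, through the gene symbols that the authors paired with 19777 of the Ensembl IDs. The IDs are ENSRNOG00000000053 (Crp), ENSRNOG00000007886 (Orm1), ENSRNOG00000013973 (Lcn2), ENSRNOG00000045772 (A2m), ENSRNOG00000017381 (Itih4), ENSRNOG00000002911 (Alb), ENSRNOG00000016275 (Ttr), ENSRNOG00000009788 (Serpina4) and ENSRNOG00000002946 (Socs3). Ahsg, fetuin-A, was not analysed here. Of the 9 matched genes, 7 passed the filter on low counts in both experiments, and Lcn2 and A2m did not. The values come from poly(A) mRNA sequencing of whole liver from 70 male Fischer F344 rats after 90 days of dosing, in 2 experiments. In the furan experiment the rats received 0 (controls), 0.03, 0.12, 0.5 or 2.0 mg furan per kg body weight per day, with 8, 8, 8, 7 and 7 rats. In the 3-methylfuran experiment, furan carrying a methyl group, they received 0 (controls), 0.02, 0.075 or 1.0 mg per kg body weight per day, with 8 rats in each group. The labels assign each dose to a diet, with all control rats under a single control diet, and each experiment was compared with its own controls.

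The acute phase response is the change in the liver's secreted proteins after infection or injury. Interleukin-6, interleukin-1 and tumour necrosis factor reach the hepatocyte and act through STAT3, C/EBP and NF-kB. Transcripts of positive acute phase proteins then rise and those of negative ones fall, and STAT3 also induces Socs3, which blocks the receptor kinases and so ends the signal. In the rat, A2m (alpha-2-macroglobulin, a protease trap) and Orm1 (alpha-1-acid glycoprotein, a carrier of drugs and lipids) are strong positive acute phase genes, whereas Crp (C-reactive protein) is made constitutively and responds weakly. Itih4 is a secreted protein of the inter-alpha-trypsin inhibitor heavy chain family, and Lcn2 (lipocalin 2) binds bacterial siderophores and is made by neutrophils and by injured hepatocytes. Alb encodes serum albumin, Ttr encodes transthyretin, the carrier of thyroxine and of the retinol-binding protein, and Serpina4 encodes a serpin known in human as kallistatin, an inhibitor of tissue kallikrein.

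The sequences just before the start of these genes were read from RefSeq (build GRCr8), which held an entry for 9 of the 10 symbols. The 250 bases before the start were searched on both strands for TTNNGCAA (C/EBP) and TTCNNNGAA (STAT), for an NF-kB motif (GGGA, any 3 bases, TCC) and for TGTTCT, a core hexamer of glucocorticoid receptor sites. Shown are Serpina4, which had the lowest ratio to controls among the tested members, Alb, the albumin gene, which fell with it, Itih4, the only member with a STAT match, and Lcn2, the only one with an NF-kB match. They are written 5′ to 3′ in the direction of the gene, with C/EBP, STAT and NF-kB matches in capitals.
Serpina4: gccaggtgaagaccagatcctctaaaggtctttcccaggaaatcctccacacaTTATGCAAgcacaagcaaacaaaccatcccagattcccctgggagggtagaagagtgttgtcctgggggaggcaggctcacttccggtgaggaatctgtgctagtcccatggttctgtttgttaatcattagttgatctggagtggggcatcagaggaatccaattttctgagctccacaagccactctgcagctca
Alb: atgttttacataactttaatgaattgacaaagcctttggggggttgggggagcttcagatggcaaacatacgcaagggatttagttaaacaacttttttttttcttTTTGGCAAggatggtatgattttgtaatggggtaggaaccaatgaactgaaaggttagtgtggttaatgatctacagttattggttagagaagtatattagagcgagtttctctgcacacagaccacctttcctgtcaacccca
Itih4: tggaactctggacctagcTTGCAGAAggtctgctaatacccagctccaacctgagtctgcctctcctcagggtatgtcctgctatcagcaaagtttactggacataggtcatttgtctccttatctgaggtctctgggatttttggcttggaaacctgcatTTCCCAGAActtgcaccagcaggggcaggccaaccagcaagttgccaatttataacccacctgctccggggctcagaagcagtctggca
Lcn2: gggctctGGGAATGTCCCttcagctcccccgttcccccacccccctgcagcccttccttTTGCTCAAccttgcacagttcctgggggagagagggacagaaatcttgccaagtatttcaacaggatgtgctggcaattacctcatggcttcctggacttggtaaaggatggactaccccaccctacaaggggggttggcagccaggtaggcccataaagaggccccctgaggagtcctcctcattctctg
These windows lie at chr6:128764532-128764781, plus strand, for Serpina4, chr14:17906980-17907229, minus strand, for Alb, chr16:6086735-6086984, plus strand, for Itih4 and chr3:36081781-36082030, minus strand, for Lcn2. The C/EBP letters began 197 bases before the start in Serpina4, 144 in Alb, 232 in Itih4 and 191 in Lcn2. The STAT letters of Itih4 began 89 bases before its start. The C/EBP letters were found in 6 of the 9 windows (also in Orm1 and Ahsg), against 9.22% of all 33469 RefSeq promoter windows of the same length. The STAT letters were found in 1 of 9 windows against 7.67% of all, the NF-kB letters in 1 of 9 against 3.38%, and TGTTCT in 2 of 9 (Crp and Ahsg) against 17.5%. None of the C/EBP, STAT and NF-kB letters was found in these windows of Crp, Ttr and Socs3. A match describes the letters and does not show that a factor binds. The windows depend on the start given by RefSeq, which was not checked. Missing letters, as for Socs3, therefore do not show that a gene's promoter lacks such sites.

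Levels are given as CPM, counts scaled to a common library size, where the size of a library is its total multiplied by a composition factor (edgeR's TMM). They compare rats for a gene and do not compare genes, since transcript length is not taken into account. The libraries held 11.4 to 27.7 M counts per rat in the furan experiment (median 16.3 M) and 11.1 to 50 M in the 3-methylfuran experiment (median 14.9 M). The TMM factors themselves differed by dose. They were 1.021 to 1.405 at furan 2.0 mg/kg against 0.894 to 0.963 in its controls, and 1.046 to 1.226 at 3-methylfuran 1.0 mg/kg against 0.919 to 0.974. With library totals alone and no TMM factor, the median log2 fold change of all genes tested moved from 0.02 to 0.42 at furan 2.0 mg/kg and from 0.00 to 0.25 at 3-methylfuran 1.0 mg/kg. The share of higher genes among those called moved from 51.6% to 91.8% and from 48.5% to 86.8%. Values under library totals are therefore given beside the members' calls, the counts of each list and the correlations. In bulk liver, fewer hepatocytes and less RNA per hepatocyte cannot be told apart.

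At the highest dose of each compound most of the tested members were lower, positive and negative genes alike, and with library totals alone Serpina4 and Itih4 were still called lower with both compounds. Of the 7 members tested at furan 2.0 mg/kg, 5 fell and 0 rose (edgeR's quasi-likelihood test, adjusted p under 0.05), against a background of 46.5% of 12727 genes called, 22.5% lower and 24% higher. Orm1 and Socs3 were called in neither direction there. With 3-methylfuran at 1.0 mg/kg, 6 of the 7 fell and 0 rose, against 43.6% of 11930 genes called, 22.5% lower and 21.2% higher. The members' median log2 fold change was -0.55 at furan 2.0 mg/kg, beside 0.02 over all genes tested, and -0.39 at 3-methylfuran 1.0 mg/kg, beside 0.00. With library totals alone, 4 fell and 2 rose at furan 2.0 mg/kg, where 6.07% of all genes were lower and 68.2% higher under that scaling. At 3-methylfuran 1.0 mg/kg, 2 then fell and 0 rose, where 7.74% of all genes were lower and 51% higher.

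**Figure D1:**
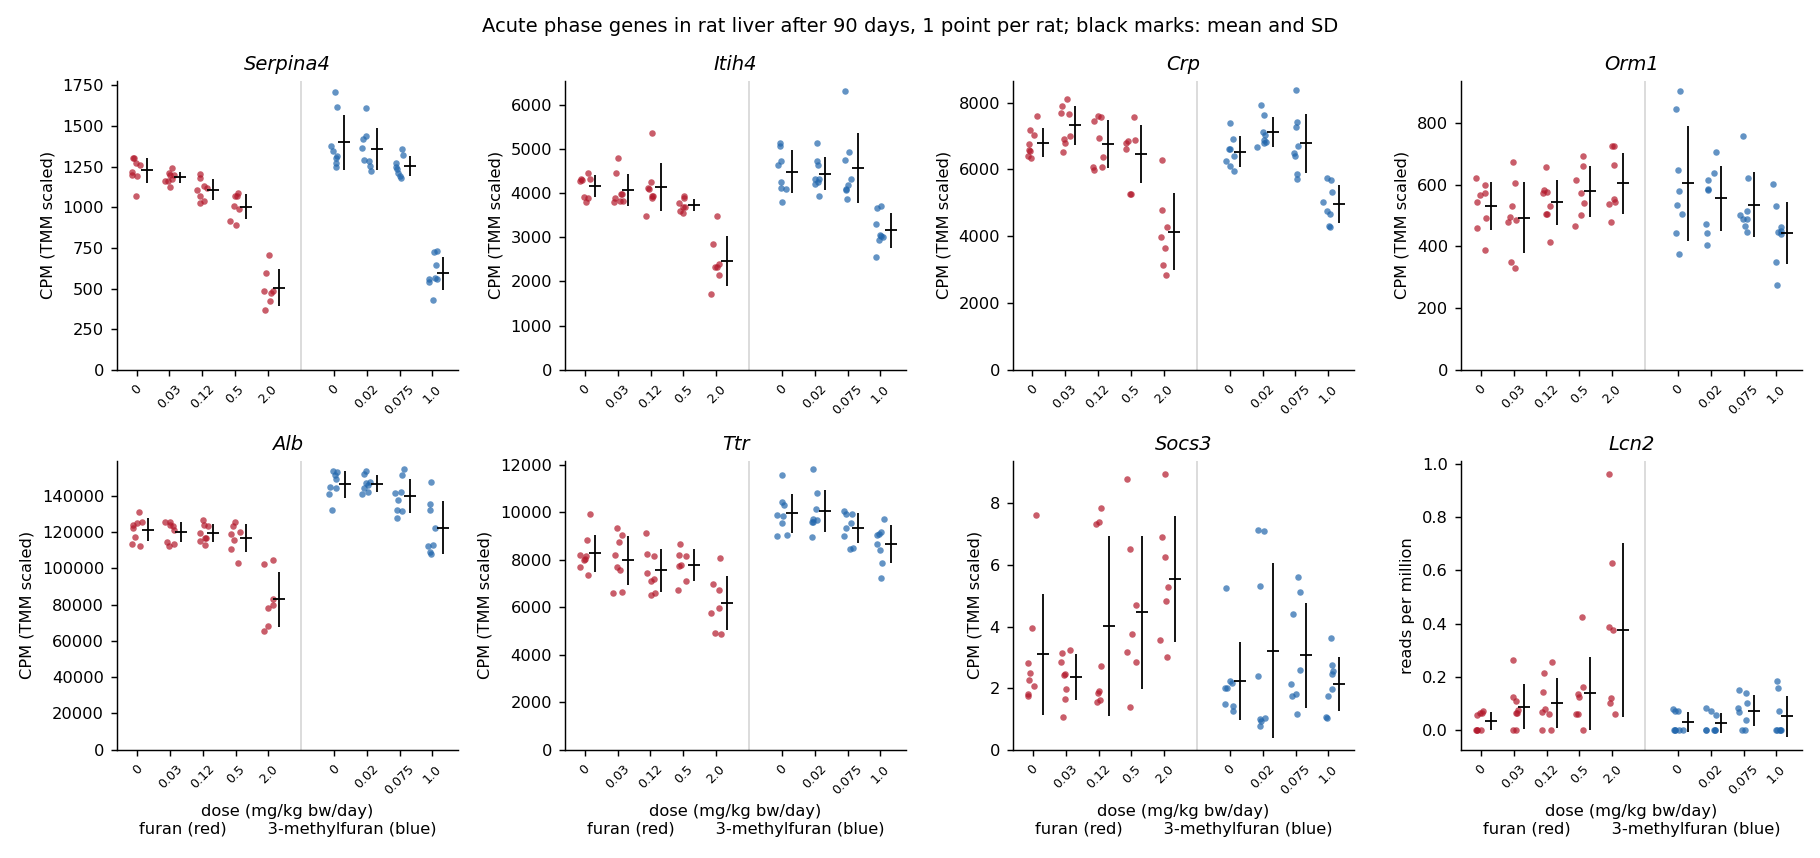
CPM of the 7 tested members, and reads per M counts of Lcn2, in each rat (y axes, linear from 0 apart from the small margin below 0 for Lcn2) by dose in mg per kg body weight per day (x axes), with furan in red and 3-methylfuran in blue; each point is a rat and black marks are the group mean and SD. Serpina4 at the highest dose of either compound lies below every control rat of its experiment, whereas Orm1 and Socs3 overlap their controls.

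Serpina4, the negative member with the largest change, fell most at both top doses among the 7 members tested. In the 7 rats on furan 2.0 mg/kg it stood at 366, 425, 474, 485, 485, 598 and 704 CPM, against 1068, 1195, 1200, 1218, 1258, 1269, 1300 and 1305 CPM in the 8 controls. The groups did not overlap, and the highest dosed rat was well under the lowest control. Serpina4 was 0.412 times the control level (log2 fold change -1.28 ± 0.08 SE, adjusted p = 6.68e-14), the smallest p of all 12727 genes. The 8 rats on 3-methylfuran 1.0 mg/kg stood at 429, 543, 557, 559, 565, 644, 724 and 728 CPM, against 1250, 1269, 1301, 1314, 1348, 1375, 1619 and 1709 CPM in the controls. Again no dosed rat reached the controls, and the level was 0.425 times theirs (log2 fold change -1.24 ± 0.08 SE, edgeR adjusted p = 2.01e-13), the rank 4 gene by p among 11930. With library totals alone the log2 fold change was -0.91 (edgeR adjusted p = 3.49e-17) for furan and -0.99 (edgeR adjusted p = 9.42e-14) for 3-methylfuran.

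Over the furan doses, Serpina4 averaged 1227 ± 76.7 CPM in controls, 1183 ± 36 at 0.03, 1109 ± 62.9 at 0.12, 1004 ± 77.6 at 0.5 and 505 ± 112 at 2.0 mg/kg (SD, n = 8, 8, 8, 7 and 7). The means descend in the order of dose. It was the 1 member called at furan 0.5 mg/kg, where 3.16% of genes were called (1.66% lower) and the rats stood at 893, 915, 990, 1005, 1068, 1071 and 1088 CPM. All 7 were below the control mean and 4 were below the lowest control (log2 fold change -0.29 ± 0.08 SE, edgeR adjusted p = 0.0404), and that call was lost without the filter on low counts, where more genes are tested (adjusted p = 0.0688). The highest dose was also lower than the one below it, by -0.99 ± 0.08 on the log2 scale between 2.0 and 0.5 mg/kg (edgeR adjusted p = 3.76e-10). In the 3-methylfuran experiment Serpina4 averaged 1398 ± 171 CPM in controls, 1360 ± 128 at 0.02, 1254 ± 63.3 at 0.075 and 594 ± 100 at 1.0 mg/kg (SD, n = 8 each). All 8 rats at 0.075 mg/kg were below the control mean, but the difference was not called (log2 fold change -0.16 ± 0.08 SE, edgeR adjusted p = 0.403).

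Alb fell at both top doses, by less than Serpina4. In the rats on furan 2.0 mg/kg it stood at 65212, 68254, 77859, 79558, 82806, 102206 and 104474 CPM, against 112254, 113573, 117198, 122155, 123667, 124695, 125617 and 131150 CPM in controls. The groups did not overlap (log2 fold change -0.55 ± 0.08 SE, edgeR adjusted p = 3e-07, or -0.18 and 4.91e-05 with library totals alone). As a share of all counts the groups overlapped, with Alb at 9.15% to 11% in the rats on furan 2.0 mg/kg, against 10.7% to 12.0% in controls. On 3-methylfuran 1.0 mg/kg, Alb ranged from 107830 to 147565 CPM, against 131924 to 153715 CPM in controls, and 5 of the 8 dosed rats were below the lowest control. It was called lower there (log2 fold change -0.26 ± 0.06 SE, edgeR adjusted p = 0.00106), but with library totals alone the log2 fold change was -0.01 (adjusted p = 0.857). As a share of counts, Alb stood at 13.8 ± 1.12% in dosed rats and 13.9 ± 0.595% in controls (SD, n = 8 each). At the lower doses the group means were 121289 ± 6457 CPM in controls, 119977 ± 5661 at 0.03, 119328 ± 4866 at 0.12 and 116630 ± 7906 at 0.5 mg/kg furan (SD, n = 8, 8, 8 and 7). These means lay within the spread of the control rats, as did 146655 ± 4490 CPM at 0.02 mg/kg and 139913 ± 9527 CPM at 0.075 mg/kg 3-methylfuran beside 146187 ± 7381 CPM in controls (SD, n = 8 each).

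Ttr was the negative member with the smallest change, and its call depended on the scaling. The rats on furan 2.0 mg/kg stood at 4883, 4931, 5737, 5988, 6722, 6978 and 8059 CPM, against 7354, 7704, 7975, 8036, 8148, 8211, 8837 and 9911 CPM in controls. Of the 7 dosed rats, 6 were below the lowest control and 1 lay among the controls. The log2 fold change was -0.42 ± 0.10 SE (edgeR adjusted p = 0.000439), and -0.04 with library totals alone (adjusted p = 0.598). On 3-methylfuran 1.0 mg/kg, Ttr ranged from 7243 to 9727 CPM, against 8997 to 11550 CPM in controls, with 4 of 8 dosed rats below the lowest control. The log2 fold change was -0.20 ± 0.06 SE (edgeR adjusted p = 0.0113), and 0.05 with library totals alone (adjusted p = 0.546). At 0.03, 0.12 and 0.5 mg/kg furan the means were 7979 ± 1042, 7550 ± 897 and 7776 ± 667 CPM (SD, n = 8, 8 and 7), where controls had 8272 ± 787 CPM (SD, n = 8).

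The positive members Itih4 and Crp also fell, in the direction of the negative genes. Itih4 in the rats on furan 2.0 mg/kg stood at 1718, 2151, 2317, 2330, 2388, 2852 and 3491 CPM, against 3797, 3883, 3905, 4275, 4292, 4319, 4326 and 4449 CPM in controls. No dosed rat reached the lowest control (log2 fold change -0.75 ± 0.09 SE, edgeR adjusted p = 3.46e-08, or -0.39 and 2.89e-06 with library totals alone). With 3-methylfuran at 1.0 mg/kg, Itih4 ranged from 2558 through a median of 3030 to 3717 CPM, against 3792 through 4450 to 5139 CPM in controls. The groups did not overlap in CPM there either (log2 fold change -0.51 ± 0.09 SE, edgeR adjusted p = 1.22e-05, or -0.26 and 0.00368 with library totals alone). As a share of all counts they overlapped, at 0.313% to 0.395% in dosed rats against 0.367% to 0.486% in controls. At furan 0.5 mg/kg, 5 of 7 rats were below the lowest control, but the log2 fold change of -0.16 ± 0.09 SE was not called (edgeR adjusted p = 0.396). Its means were 4156 ± 251 CPM in controls, 4063 ± 358 at 0.03, 4130 ± 544 at 0.12, 3731 ± 144 at 0.5 and 2464 ± 563 at 2.0 mg/kg furan (SD, n = 8, 8, 8, 7 and 7).

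Crp in the rats on furan 2.0 mg/kg stood at 2852, 3145, 3647, 3963, 4279, 4778 and 6279 CPM, against 6330, 6396, 6536, 6586, 6750, 7036, 7183 and 7612 CPM in controls. The highest dosed rat came just under the lowest control (log2 fold change -0.72 ± 0.11 SE, edgeR adjusted p = 1.32e-06, or -0.36 and 1.82e-05 with library totals alone). As a share of all counts the groups overlapped, at 0.4% to 0.641% in dosed rats against 0.61% to 0.697% in controls. The rats on 3-methylfuran 1.0 mg/kg ranged in Crp from 4289 to 5748 CPM, against 5952 to 7393 CPM in controls, with no overlap. As a share of all counts these groups overlapped, at 0.473% to 0.619% against 0.547% to 0.707% in controls. The log2 fold change was -0.39 ± 0.07 SE (edgeR adjusted p = 3.51e-05), and -0.15 with library totals alone (adjusted p = 0.0535). At the lower doses Crp means were 7319 ± 588, 6756 ± 716 and 6464 ± 868 CPM at 0.03, 0.12 and 0.5 mg/kg furan (SD, n = 8, 8 and 7), where controls had 6804 ± 441 CPM (SD, n = 8). They lay on both sides of the control mean and none was called.

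Orm1, a strong acute phase gene of the rat, was 480, 537, 545, 554, 664, 724 and 726 CPM in the rats on furan 2.0 mg/kg, against 388, 460, 491, 544, 565, 572, 598 and 623 CPM in controls. The groups overlapped in CPM, with 3 of 7 dosed rats above the highest control. They were ME086_L, ME089_L and ME092_L, the rats with the lowest TMM factors of that group (1.021, 1.08 and 1.2). As a share of all counts the groups did not overlap, at 0.0667% to 0.0797% in dosed rats against 0.037% to 0.06% in controls. The log2 fold change of 0.19 ± 0.12 SE was not called (edgeR adjusted p = 0.214), though it was 0.56 and called with library totals alone (adjusted p = 2.1e-05). On 3-methylfuran 1.0 mg/kg, Orm1 ranged from 274 to 601 CPM, against 374 to 904 CPM in controls. It was called lower there (log2 fold change -0.44 ± 0.16 SE, edgeR adjusted p = 0.0286), with most dosed rats inside the control range. That call was lost with library totals alone (-0.19, adjusted p = 0.282), with these 2 groups alone (adjusted p = 0.0715), without the low-count filter (adjusted p = 0.0661), and without any of 4 single rats (adjusted p from 0.0658 to 0.0878). Those were dosed rats ME583L and ME586L and controls MC507L and MC510L.

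Lcn2 was sparsely counted, and it stood higher at furan 2.0 mg/kg. The 7 rats there had 12, 16, 7, 6, 2, 1 and 2 reads, against 0 or 1 read in each of the 8 controls, of which 4 had a read. Summed over rats, that was 46 reads in 123 M counts, or 0.373 reads per M counts (RPM; exact Poisson 95% interval 0.273 to 0.498), against 4 in 132 M, or 0.0303 RPM (0.00827 to 0.0777). The ratio was 12.3 (95% interval 4.5 to 47.1), an interval that covers counting error only, as do the intervals above. Over rats, the mean was 0.376 RPM in the dosed group and 0.0316 in controls (exact two-sided permutation p = 0.00124, or 0.0174 adjusted over 14 such tests). Leaving out each rat in turn gave differences of 0.247 to 0.397 RPM with exact permutation p of 0.000666 to 0.00266. Tested across all 23258 genes without the low-count filter, Lcn2 rose (log2 fold change 2.94 ± 0.69 SE, edgeR adjusted p = 0.000842), where 26.5% of genes were called and 15.5% were higher. In the authors' deposited table its fold change was 5.97 (adjusted p = 0.00195).

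The Lcn2 reads were uneven among the rats on furan 2.0 mg/kg. The 4 rats ME081_L, ME082_L, ME083_L and ME085_L had 0.627, 0.963, 0.388 and 0.375 RPM, and ME086_L, ME089_L and ME092_L had 0.0998, 0.0596 and 0.121. In that order of rats, Col1a1, a collagen gene of activated stellate cells, stood at 186, 184, 86.1, 108, 12.1, 9.01 and 13.7 CPM, against 4.92 to 19.5 CPM in controls. The same 4 rats were high in both genes. They also had the highest TMM factors of the group, up to 1.405, where the other 3 had 1.021, 1.08 and 1.2. Crp stood at 3647, 3145, 3963, 2852, 6279, 4778 and 4279 CPM in the same order, and Ttr at 5737, 4883, 5988, 4931, 6978, 8059 and 6722 CPM. In CPM, Crp, Ttr, Itih4 and Orm1 were each lower in all of the first 4 rats than in any of the other 3. Alb, Serpina4 and Socs3 did not split this way. ME092_L had 79558 CPM of Alb and 474 of Serpina4, below the 82806 and 485 CPM of ME083_L. Socs3 stood at 5.28 CPM in ME086_L and 6.25 in ME083_L. All of these are CPM values, which a high TMM factor lowers. With the TMM factor taken out, Crp still split this way, and Ttr, Itih4 and Orm1 did not. The part of the TMM factor in this split was not tested. The summed level of the 10 neutrophil markers matched was 5.13, 6.36, 4.98, 3.52, 2.4, 1.88 and 4.08 CPM in that order, against 2.11 to 3.91 CPM in controls, where Mpo was at 0 in every rat. The part of neutrophils and of stellate cells in the Lcn2 reads was not tested.

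**Figure D2:**
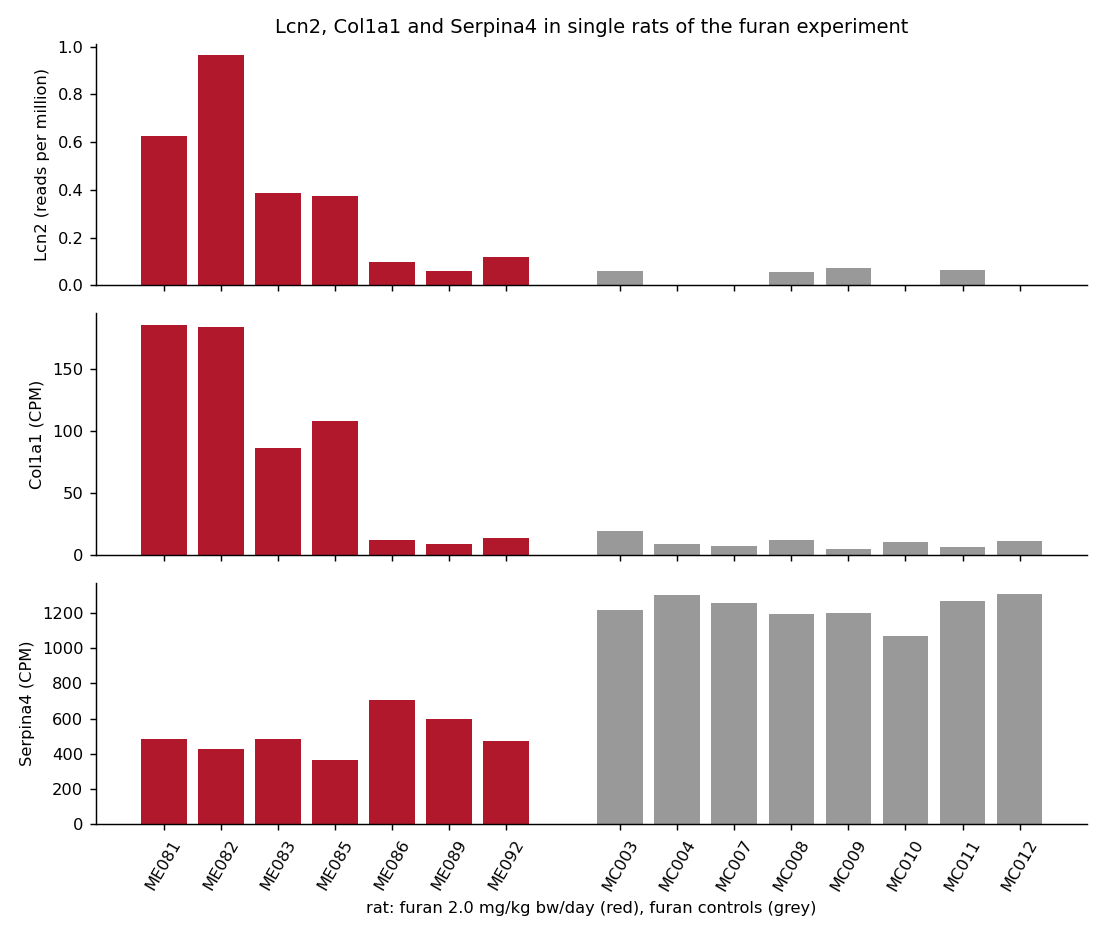
Lcn2 in reads per M counts, Col1a1 in CPM and Serpina4 in CPM (bars, from 0) in each rat on furan 2.0 mg/kg (red, left) and each furan control (grey, right). The first 4 dosed rats are high in Lcn2 and in Col1a1, and all 7 are below the controls in Serpina4, at 366 to 704 CPM.

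Below the top dose, Lcn2 had 11 reads at 0.03, 12 at 0.12 and 15 at 0.5 mg/kg furan, or 0.0783, 0.096 and 0.129 RPM. These were above the 0.0303 RPM of controls, but none passed after adjustment (lowest exact permutation p = 0.0292, at 0.5 mg/kg, or 0.204 adjusted). With 3-methylfuran at 1.0 mg/kg, Lcn2 had 6 reads against 3 in controls, a ratio of 1.72 (95% interval 0.367 to 10.6, exact permutation p = 0.393). That difference was not detectable at this depth. A2m, the classical acute phase protein of the rat, gave 14 reads in all 70 rats, from 12 rats and with at most 2 reads in a rat. That is 0.0115 RPM over 1219 M counts (exact Poisson 95% interval 0.00628 to 0.0193), and its 7 exact permutation tests gave p of 0.467 or more. There were 2 A2m reads at each top dose and 2 in each control group. The upper interval limit was 0.0587 RPM at furan 2.0 mg/kg and 0.0531 RPM at 3-methylfuran 1.0 mg/kg, so A2m was very low there. Whether the sparse A2m reads differ between groups was not detectable at this depth.

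Socs3, the feedback inhibitor, had few reads and varied widely among rats. It stood at 3.01, 3.57, 4.84, 5.28, 6.25, 6.9 and 8.95 CPM in the rats on furan 2.0 mg/kg, against 1.74, 1.8, 2.06, 2.28, 2.49, 2.83, 3.95 and 7.62 CPM in controls. All but 1 of the dosed rats were above the control mean, with a single control, MC011_L, among the highest values of both groups. The log2 fold change of 0.83 ± 0.37 SE was not called (edgeR adjusted p = 0.0647). Without MC011_L it was 1.16 (edgeR adjusted p = 0.00999), without dosed rat ME081_L 0.96 (adjusted p = 0.0408), without ME085_L 0.94 (adjusted p = 0.0492), and with library totals alone 1.20 (adjusted p = 0.00419). It also passed with the first sequencing run alone (0.90, adjusted p = 0.0353), with these 2 groups alone (0.85, adjusted p = 0.0316) and with limma voom (0.89, adjusted p = 0.0355), and by DESeq2 just under the threshold (0.84, adjusted p = 0.05 after rounding). It did not pass with RLE scaling (0.83, edgeR adjusted p = 0.0658) or without the low-count filter (0.85, adjusted p = 0.104). Over all furan doses Socs3 rose with dose, by 0.43 ± 0.16 SE on the log2 scale per mg/kg (edgeR adjusted p = 0.0212). The group means were 3.10 ± 1.96 CPM in controls, 2.35 ± 0.751 at 0.03, 4.02 ± 2.92 at 0.12, 4.46 ± 2.49 at 0.5 and 5.54 ± 2.03 at 2.0 mg/kg (SD, n = 8, 8, 8, 7 and 7). Rats of a single dose group could differ widely: at 0.12 mg/kg, 5 had 1.55 to 2.71 CPM and 3 had 7.33 to 7.84 CPM. On 3-methylfuran 1.0 mg/kg, Socs3 averaged 2.14 ± 0.881 CPM in dosed rats and 2.23 ± 1.27 CPM in controls (SD, n = 8 each), a difference of -0.05 ± 0.46 SE on the log2 scale that was not called (edgeR adjusted p = 0.941).

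Apart from Serpina4 at furan 0.5 mg/kg, every call of a member against controls was at the top dose of its compound. At furan 0.12 mg/kg (1.94% of genes called) and 0.03 mg/kg (0.0707%), and at 3-methylfuran 0.075 mg/kg (1.37%) and 0.02 mg/kg (0.0335%), 0 of the 7 members tested were called by edgeR, DESeq2 or limma voom. In these 4 comparisons 0 members had an unadjusted p under 0.05 with edgeR. Between neighbouring doses, 5 members were lower at 2.0 than at 0.5 mg/kg furan (32.2% of genes called, 16.5% lower) and 4 were lower at 1.0 than at 0.075 mg/kg 3-methylfuran (34.9% called, 18% lower). Those were Serpina4, Crp, Itih4 and Alb in both, with Ttr in furan, at log2 differences of -0.99, -0.64, -0.60, -0.49 and -0.33 for furan and -1.08, -0.45, -0.53 and -0.19 for the first 4 in 3-methylfuran. With library totals alone, 4 were lower and Orm1 was higher between those furan doses (4.05% of genes lower, 59.3% higher), and Serpina4, Crp and Itih4 were lower between those of 3-methylfuran (6.18% lower). Between neighbouring lower doses 0 members were called by edgeR, DESeq2 or limma voom, and 0 had an unadjusted p under 0.05 with edgeR (0.0707% of genes called between 0.12 and 0.03 mg/kg furan, 0% between 0.5 and 0.12, and 0.0335% between 0.075 and 0.02 mg/kg 3-methylfuran). As a linear trend over dose, 5 members fell and Socs3 rose with furan (52% of genes called, 25.3% lower and 26.7% higher), and 6 fell with 3-methylfuran (48% called, 24.2% lower). Under library totals, 4 members fell and Orm1 and Socs3 rose with furan (6.11% of genes lower, 70.9% higher), and 3 fell with 3-methylfuran, Serpina4, Crp and Itih4 (8.15% lower). The steepest fall was that of Serpina4, at -0.62 ± 0.04 SE per mg/kg furan and -1.21 ± 0.07 SE per mg/kg 3-methylfuran.

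**Figure D3:**
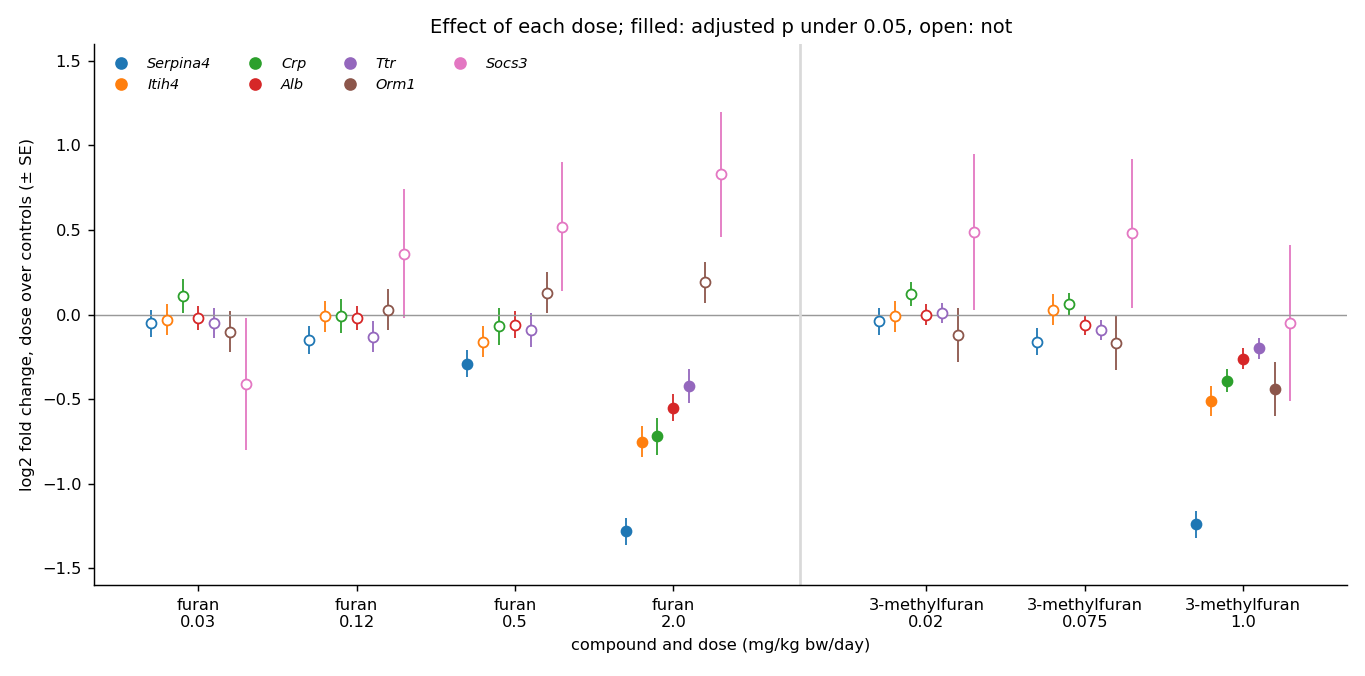
Log2 fold change of the 7 tested members against the controls of the same experiment (points, with 1 SE) by compound and dose in mg per kg body weight per day; filled points passed the test and open points did not. Apart from Socs3, members lie between -0.29 and 0.13 at the lower doses, and Serpina4 reaches -1.28 at furan 2.0 mg/kg and -1.24 at 3-methylfuran 1.0 mg/kg.

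The compounds differ by the methyl group, but their top doses also differ (2.0 and 1.0 mg/kg), and the experiments and library kits go with the compound, so these cannot be told apart. The difference of effects, furan 2.0 mg/kg minus 3-methylfuran 1.0 mg/kg, was estimated in a single model over both experiments, which called 7.23% of 12941 genes (3.72% lower). It was called for 1 of the 7 members, Alb, at -0.30 ± 0.09 SE on the log2 scale (95% interval -0.49 to -0.11, edgeR adjusted p = 0.0376). That call was lost with the first run alone (adjusted p = 0.0528) and without the low-count filter (adjusted p = 0.0726), while with library totals alone Alb was called at -0.17 (adjusted p = 0.0418; 1.72% of genes lower, 11.6% higher). Orm1 differed in the opposite direction, by 0.62 ± 0.21 SE (95% interval 0.21 to 1.03), and at an edgeR adjusted p of 0.05 was not called. It was called with DESeq2 (adjusted p = 0.0375) and with library totals alone (0.76, adjusted p = 0.00541). For Serpina4 the difference was -0.05 ± 0.12 SE (95% interval -0.28 to 0.18, edgeR adjusted p = 0.844). For Crp it was -0.33 (95% interval -0.60 to -0.07, edgeR adjusted p = 0.103), and Itih4, Ttr and Socs3 were not called either (-0.26, -0.23 and 0.87).

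**Figure D4:**
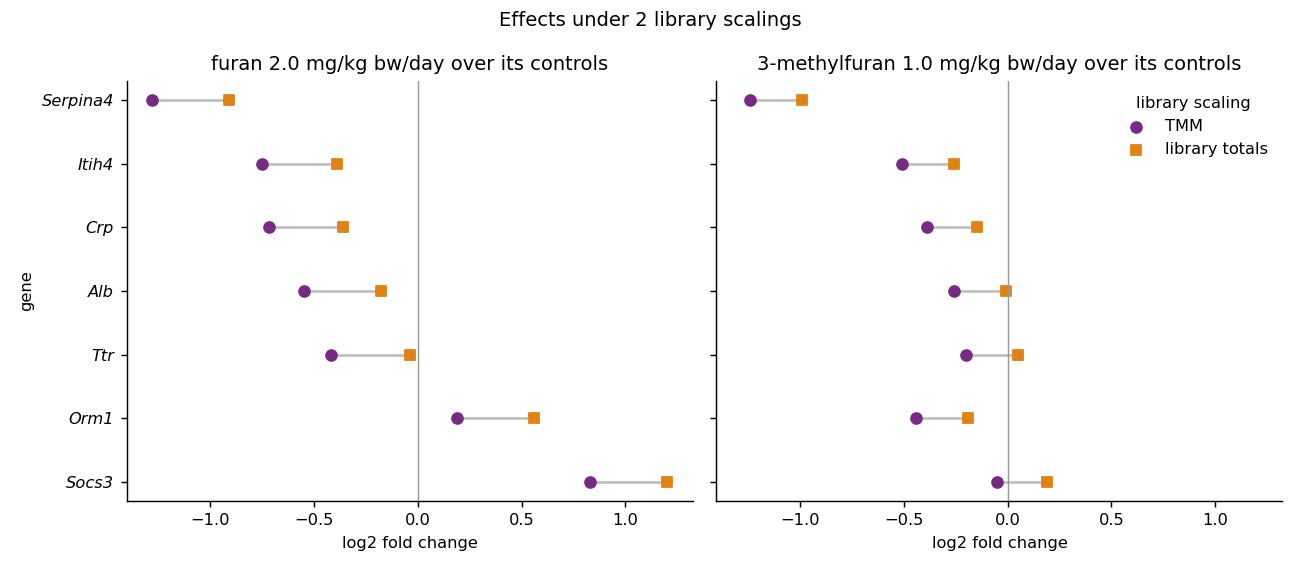
Log2 fold change of each tested member at furan 2.0 mg/kg (left) and 3-methylfuran 1.0 mg/kg (right) with TMM scaling (circles) and with library totals alone (squares). Each value is higher with library totals, and Serpina4 stays lowest of the 7, at -0.91 and -0.99.

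Members also varied together among the rats of the furan experiment, pooled over its dose groups. The groups did not spread alike. The SD of Alb was 18.4% of its mean at 2.0 mg/kg, against 4.08% to 6.78% in the other groups. For Serpina4 it was 22.2% against 3.04% to 7.72%, whereas Orm1 and Socs3 did not spread most at 2.0 mg/kg. Correlations within a single group were not tested. With group means removed, 13 of the 21 pairs of the 7 tested members were correlated over 38 rats (permutation test of Pearson's r, adjusted p under 0.05), with a median r of 0.46, and 12 by Spearman's rho. Without the 2 rats farthest from the median of the first gene of each pair, 11 pairs passed by Pearson's r and 6 by Spearman's rho. The highest was Alb with Serpina4 (r = 0.91, rho = 0.77, permutation p adjusted over 21 pairs = 7e-05). Without those 2 rats its r was 0.84. All genes of a rat share its TMM factor, and with library totals alone 1 of 21 pairs passed, Alb with Serpina4 (r = 0.63, adjusted permutation p = 0.0212). In the 3-methylfuran experiment 1 of 21 pairs passed over 32 rats, again Alb with Serpina4 (r = 0.66, rho = 0.61, adjusted permutation p = 0.00987). Without the 2 farthest rats it had r = 0.51 (adjusted permutation p = 0.0479) and rho = 0.52, which no longer passed (adjusted permutation p = 0.0758). With library totals alone r was 0.38 and did not pass.

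Over all 70 rats, the genes most alike each member were picked from 11885 genes by Pearson's r of log2 CPM less the group mean, given as a description. Values with library totals alone follow each r, and they were lower for most pairs. Serpina4 was most like Apoc3 (r = 0.79, or 0.61 with library totals), an apolipoprotein, and Alb (r = 0.79, or 0.47 with library totals). Crp was most like Sdc2 (0.82, or 0.61 with library totals), the plasminogen gene Plg (0.80, or 0.53) and Apoh (0.80, or 0.54). Itih4 was most like Kng1 (0.87, or 0.82 with library totals), which encodes a kininogen, C4bpa (0.85, or 0.77) and Cfi (0.83, or 0.73), both of complement regulation. Socs3 was most like the phosphatase gene Dusp6 (0.84 under both scalings), the liver transcription factor gene Foxa2 (0.76, or 0.75 with library totals) and the early response gene Ier3 (0.70, or 0.69). Ttr was most like Spp2 (0.77, or 0.69 with library totals) and Orm1 most like Sult1a1 (0.74, or 0.67).

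Other acute phase genes of the liver were called lower more often than higher at the top doses, under both scalings. Of 25 other positive acute phase genes tested at furan 2.0 mg/kg, 20 fell and 3 rose (median log2 fold change -0.51), and 11 fell and 4 rose with library totals alone. Those that fell were 80% of the list, and 44% with library totals alone, beside the 22.5% and 6.07% of all genes given above. Mbl2, a mannose-binding lectin, averaged 23.5 ± 5.34 CPM in dosed rats and 49.3 ± 2.48 CPM in controls (SD, n = 7 and 8; log2 fold change -1.07 ± 0.09 SE, edgeR adjusted p = 2.36e-11). Fgl1, a fibrinogen-like secreted protein, fell by 1.28 on the log2 scale, and Proc, the zymogen of the anticoagulant protein C, by 0.79. The sorting of genes into positive and negative lists was made here and was not tested. It is open to dispute for some, such as Proc on the positive list and Serpina1 on the negative one. Of 18 other negative acute phase genes, 14 fell and 1 rose (median -0.60), and 12 fell and 2 rose with library totals alone. Itih1, a partner of bikunin, fell by 0.93, and Apoa4, an apolipoprotein of lipid transport, by 1.84. Apoa1, the main protein of high-density lipoprotein and also on the negative list, rose to 2118 ± 232 CPM, against 1175 ± 195 CPM in controls (SD, n = 7 and 8; log2 fold change 0.85 ± 0.11 SE, edgeR adjusted p = 8e-08).

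Of the same lists on 3-methylfuran 1.0 mg/kg, 17 of 25 other positive genes fell and 2 rose (median -0.34), and 8 fell and 4 rose with library totals alone. Those that fell were 68% of the list, and 32% with library totals alone, beside 22.5% and 7.74% of all genes. Those that rose were 8%, and 16% with library totals alone, beside 21.2% and 51% of all genes. Proc fell by 0.80, Apcs (serum amyloid P) by 0.86 and Mbl2 by 0.67. Of 18 other negative genes, 15 fell and 2 rose (median -0.41), and 9 fell and 3 rose with library totals alone. The share that fell was 83.3%, and 50% with library totals alone, beside the same shares of all genes. Itih1 fell by 0.82, while Apoa1 rose to 2990 ± 342 CPM, against 1362 ± 268 CPM in controls (SD, n = 8 each; log2 fold change 1.13 ± 0.13 SE). At furan 0.5 mg/kg 1 positive gene fell and 0 negative genes were called, where 3.16% of all genes were called and 1.66% were lower.

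Genes of the signal itself were called in both directions. Of 25 genes of IL-6 and STAT3 signalling tested at furan 2.0 mg/kg, 8 fell and 2 rose (median -0.14), or 40% called beside 46.5% of all genes. Under library totals 1 fell and 12 rose, or 48% higher beside 68.2% of all genes, so the list has no direction that holds under both scalings. Genes that kept their direction under both were Osmr, the oncostatin M receptor, which rose (2.15 ± 0.41 SE, edgeR adjusted p = 6.01e-05), Stat3, which rose (0.51 ± 0.10 SE, edgeR adjusted p = 8.85e-05), and Cebpb, the C/EBP factor of the acute phase, which fell (-1.26 ± 0.22 SE, edgeR adjusted p = 2.24e-05). Of the 24 tested on 3-methylfuran 1.0 mg/kg, 5 fell and 3 rose (3 and 8 with library totals alone), or 33.3% called beside 43.6% of all genes. Both chains of the interleukin-6 receptor fell there, Il6r at -0.85 ± 0.11 SE (edgeR adjusted p = 3.35e-07) and Il6st at -0.59 ± 0.13 SE (edgeR adjusted p = 0.000352), as did Cebpb, at -0.88 on the log2 scale, while Myc rose by 2.38 ± 0.44 SE.

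Of 21 genes of IL-1, TNF and NF-kB signalling, 6 fell and 2 rose at furan 2.0 mg/kg and 6 fell and 3 rose at 3-methylfuran 1.0 mg/kg, while with library totals alone 3 fell and 7 rose with furan, and 3 fell and 8 rose with 3-methylfuran. The shares called were 38.1% with furan, beside 46.5% of all genes, and 42.9% with 3-methylfuran, beside 43.6%. Il1rap, the accessory chain of the interleukin-1 receptor, fell in both, at -0.65 and -0.66 on the log2 scale. Nfkbia, the inhibitor that NF-kB itself induces, fell at furan 2.0 mg/kg (-1.22 ± 0.22 SE). Among the genes of this list that rose were Irak3 at furan 2.0 mg/kg (0.39 ± 0.09 SE) and Tnfaip3 at 3-methylfuran 1.0 mg/kg (0.96 ± 0.15 SE). Of the 12 cytokine genes matched, 6 had counts enough to be tested, and 2 rose at each top dose (3 with furan and 5 with 3-methylfuran with library totals alone). The share that rose was 33.3% at each, beside 24% of all genes with furan and 21.2% with 3-methylfuran. With library totals alone it was 50% beside 68.2% with furan, and 83.3% beside 51% with 3-methylfuran. Clcf1, a cytokine of the interleukin-6 family, rose in both (1.34 ± 0.22 SE with furan, edgeR adjusted p = 5.94e-06, and 0.90 with 3-methylfuran). Il6 was not analysed here. Tnf had 8 reads over all 70 rats. Lif, another cytokine of the interleukin-6 family, was too sparse to test and was singled out after its counts were seen: it had 30 reads at furan 2.0 mg/kg against 1 in controls, and 26 at 3-methylfuran 1.0 mg/kg against 1. Osm, also too sparse to test, had 30 reads at furan 2.0 mg/kg against 29, and 10 at 3-methylfuran 1.0 mg/kg against 20. Il11, sparser still, had 8 reads against 1 and 10 against 2.

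Of 16 hepatocyte transcription factors tested at furan 2.0 mg/kg, 10 fell and 1 rose (median -0.48), though with library totals alone 3 fell and 4 rose. Those that fell were 62.5% of the list beside 22.5% of all genes, and 18.8% beside 6.07% with library totals alone. Those that rose were 6.25% beside 24%, and 25% beside 68.2% with library totals alone. Cebpa, which drives albumin transcription, fell by 0.97 on the log2 scale (edgeR adjusted p = 9.96e-08), and Hlf by 0.71, both also lower under library totals. Dbp, the D-site binding factor named for the albumin promoter and a clock-controlled gene, rose by 1.47. With 3-methylfuran at 1.0 mg/kg, 7 of 16 fell and 1 rose (4 and 3 with library totals alone), with Cebpa at -0.59, Hlf at -0.84 and Dbp at 1.57 on the log2 scale. The share that fell was 43.8% beside 22.5% of all genes, and 25% beside 7.74% with library totals alone. The share that rose was 6.25% beside 21.2%, and 18.8% beside 51% with library totals alone.

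Markers of liver cell types were also counted at furan 2.0 mg/kg, where 24% of all genes were called higher and 22.5% lower. With library totals alone, 68.2% of all genes were higher and 6.07% lower. Of 11 hepatocyte markers tested there, 8 fell and 2 rose (2 and 2 with library totals alone), and their summed level was 26066 to 41035 CPM in dosed rats, against 37194 to 47253 CPM in controls, with no marker at 0. Some of these markers, namely Apoa1, Serpina1 and Fgb, are on the acute phase lists. Of 9 cholangiocyte markers 7 rose and 1 fell (8 and 0 with library totals alone), and of 10 stellate cell and myofibroblast markers 5 rose and 1 fell (7 and 0). Of 14 macrophage markers 3 rose (9 with library totals alone), and of 4 neutrophil markers 1 rose, Csf3r, the receptor of granulocyte colony-stimulating factor, at 0.85 on the log2 scale (3 of the 4 rose with library totals alone). The shares that rose were 21.4% of macrophage markers and 25% of neutrophil markers (64.3% and 75% with library totals alone), near those of all genes. For stellate markers the share was 50%, and 70% with library totals alone, the second near that of all genes. The summed cholangiocyte level was 72.7 to 148 CPM against 61.8 to 82.2 CPM in controls, the stellate level 228 to 937 CPM against 230 to 371 CPM, and the macrophage level 425 to 1031 CPM against 492 to 911 CPM. Among markers on 3-methylfuran 1.0 mg/kg, 6 of 11 hepatocyte markers fell and 2 rose (4 and 4 with library totals alone), and 3 of 6 cholangiocyte markers rose and 1 fell (3 and 0). Of all genes, 21.2% were higher and 22.5% lower at that dose, and 51% and 7.74% with library totals alone. There 1 of 13 macrophage markers rose (3 with library totals alone), 0 of 10 stellate markers were called (3 rose with library totals alone), and 0 of 1 neutrophil marker was called under either scaling. Summed hepatocyte markers stood at 30021 to 37912 CPM there, against 34132 to 38928 CPM in controls. All 5 red blood cell markers tested fell at furan 2.0 mg/kg and 3 at 3-methylfuran 1.0 mg/kg (4 and 1 with library totals alone). Hba-a2 has more than 1 Ensembl ID among them, so these are counts of IDs and not of separate gene symbols. Of 7 T and NK cell markers 0 were called with furan (4 rose with library totals alone) and 1 of 5 rose with 3-methylfuran under both scalings. Of 2 B and plasma cell markers 0 were called with furan (1 rose with library totals alone), and 0 of 1 with 3-methylfuran under either scaling. Of 2 pancreatic acinar markers tested with furan both fell (1 with library totals alone), and the 1 tested with 3-methylfuran was not called (it rose with library totals alone). The part of cell composition in the members' changes was not tested.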

How the data were processed

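Per the labels' protocols, RNA from flash-frozen liver was sequenced after poly(A) selection with stranded Illumina kits, an older kit for 3-methylfuran and a later one for furan. Per the submitters' processing notes, the tools were STAR 2.7.1a, featureCounts 2.0.0 and DESeq2 1.26.0 with genome build Rnor_6.0. The authors deposited raw counts per Ensembl gene for 172 sequencing runs, and tables of their own fold changes and adjusted p-values. Their deposited fold values are signed folds for furan (a fall is negative) and a linear ratio for 3-methylfuran, and whether they were shrunken is not given in the sources used here. They were used only where the authors' deposited table is named.

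Runs were summed per rat: run pairs of a rat differed by no more than sampling noise (chi-square per degree of freedom 0.985 to 1.07, against at least 6.15 between rats). The depth ranges stand in the text. Rats are separate animals, so p-values measure the spread among them. Each control rat went to the experiment whose count table holds its column. Counts were tested with edgeR 4.0.16 (R 4.3.3; TMM, filterByExpr with a minimum count of 10, robust quasi-likelihood F test) on the whole table of each experiment, with Benjamini-Hochberg adjustment over all genes and calls at adjusted p under 0.05. Standard errors are the log2 fold change over the square root of F. Correlations used 100000 permutations within groups. Lcn2 and A2m, under the filter, were tested by exact permutation of their RPM, chosen after seeing the data. The script was tested on simulated counts. Alternatives were RLE scaling, library totals alone, no filter, DESeq2 1.42.0, limma 3.58.1 voom, the first run only, 2 groups only, and leaving out each rat at the top doses.

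The members and lists were chosen with earlier results of these data known. Named genes were all members, at most 5 genes with the smallest adjusted p of each list at each top dose, and the 3 genes most alike each member. Promoters and gene symbols outside the deposited tables are RefSeq's (GRCr8), used for sequence only.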

Additional observations from a re-analysis of the deposited data

Results flagged for a closer look

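Of 64 groups of 7 or 8 rats examined for a single rat standing apart (Dixon's criterion), 5 had one, where chance alone flags about 1 in 20. Itih4 was highest in 1 rat on 3-methylfuran 0.075 mg/kg (MB548L, 6304 CPM) and in 1 rat on furan 0.12 mg/kg (MB052_L, 5357 CPM). Serpina4 was lowest in furan control MC010_L (1068 CPM). Socs3 was highest in 3-methylfuran control MC510L (5.25 CPM) and in furan control MC011_L (7.62 CPM), and without the second of these Socs3 passed the test at furan 2.0 mg/kg. The Alb effect differed between furan 2.0 mg/kg and 3-methylfuran 1.0 mg/kg by -0.30 on the log2 scale, in the test of that difference given above.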

How the results depend on the processing

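RLE scaling, DESeq2 and limma voom left the counts of members called at both top doses within 1.5 times of those reported, and leaving out each rat gave 5 to 6 members called at furan 2.0 mg/kg and 5 to 6 at 3-methylfuran 1.0 mg/kg. Library totals alone gave 2 members called at 3-methylfuran 1.0 mg/kg and 3 in its trend, and no filter gave 0 at furan 0.5 mg/kg. The difference of effects had 2 members called with DESeq2 and with library totals, and 0 with the first run alone or no filter. The correlated pairs numbered 1 with library totals for furan, and for 3-methylfuran 0 with library totals and 2 by Pearson's r but 0 by Spearman's rho without the 2 farthest rats. Among single genes, 17 values changed sign, none of them called under the alternative, and the cause was not tested. With library totals these were Alb at furan 0.5 (0.01), Alb, Crp and Itih4 at furan 0.12 (0.01, 0.02 and 0.02), Alb between furan 0.12 and 0.03 (0.01), Ttr (0.05) and Socs3 (0.19) at 3-methylfuran 1.0, Alb (0.02) and Ttr (0.11) between 3-methylfuran 1.0 and 0.075, Ttr in the 3-methylfuran trend (0.07), the Serpina4 difference of effects (0.08) and Socs3 between 3-methylfuran 0.075 and 0.02 (0.02). That last value was also 0.34 with limma voom and 0.01 without the filter. Socs3 at 3-methylfuran 1.0 ranged from -0.20 to 0.27 when single rats were left out (0.05 without ME583L or ME590L, 0.27 without MC510L). Of the other values of single genes, 879 kept their side of the threshold, 18 lost a call and 13 gained one. No paired analysis was possible because every rat carries its own number. Depth limits Lcn2 and A2m, whose reads were too few to compare at most doses.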
